A study of Glycine max with 6 samples.

Results

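The 8 genes described here act in floral identity and in the growth of the soybean stem, and their RNA was followed in ageing leaves: AP1a (Glyma.16G091300), AP1b (Glyma.08G269800), AP1c (Glyma.01G064200), AP1d (Glyma.02G121600), SOC1a (Glyma.18G224500), SOC1b (Glyma.09G266200), Dt1 (Glyma.19G194300) and Dt2 (Glyma.18G273600). They were taken by identifier from the count table, and all 8 members were found among its 56044 gene models. Leaf RNA of wild-type plants of the cultivar BR16, grown in pots of soil in a greenhouse, was sequenced at 80 and at 20 days after germination (DAG) in 3 libraries per age. In the methods these ages are a late reproductive stage (R7) and an early vegetative one (V3), whereas the sample labels call both vegetative. Disks were cut from middle leaflets, at the third and also the seventh trifoliate position, and which position belongs to which age is not stated, so that age, stage and possibly leaf position cannot be told apart. All 6 libraries are of leaf blade, and shoot apices, flower buds and stems were not analysed here.

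AP1, SOC1 and Dt2 encode MADS-box transcription factors, and Dt1 encodes a small protein of the phosphatidylethanolamine-binding family, to which the florigen FT also belongs. In Arabidopsis, SOC1 is switched on by FT and by other flowering signals and passes them on at the shoot apex, where AP1 then gives the new primordia the identity of flowers. Dt1 is the soybean counterpart of TERMINAL FLOWER1 and keeps the stem tip growing. Dt2, of the AP1 and FRUITFULL group, can repress Dt1 at the apex and make the stem semi-determinate, depending on the alleles carried.

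The libraries held 12353418 to 15883253 counts at 80 DAG and 10758425 to 12184798 counts at 20 DAG. Values are given as raw counts, or as CPM, the counts scaled by a library's total over the tested genes and its TMM factor (here called the effective library size). The ages were compared with edgeR's quasi-likelihood test, and a gene with a Benjamini-Hochberg adjusted p under 0.05 over all genes tested was called. The expression filter left 30058 genes. Of the 8 members, 2 passed it, SOC1a and SOC1b, and the other 6 had too few counts.

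Between the ages, SOC1b fell at 80 DAG to 0.659-fold of its 20 DAG level (edgeR, adjusted p = 0.0442). This call was close to the threshold and was kept under 5 of 13 alternatives. SOC1a did not pass the threshold, and neither of the members tested rose. The AP1 genes and Dt1 were at or next to no counts in leaves of both ages. Dt2 held a few counts, most of them in 1 library of 20 DAG. One of the 2 members tested was called, against 49.1% of all genes tested.

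SOC1a was the member with the most counts. It had 528, 443 and 461 counts in replicates 1 to 3 of 80 DAG and 362, 478 and 362 counts in those of 20 DAG. Scaled, these were 28.6, 36.5 and 32.0 CPM at 80 DAG, against 38.5, 37.2 and 36.1 CPM at 20 DAG. Replicate 2 of 80 DAG stood above replicate 3 of 20 DAG, so the ages overlapped, while the other 80 DAG libraries lay below every library of 20 DAG. The mean was 32.4 ± 3.92 CPM at 80 DAG and 37.3 ± 1.21 CPM at 20 DAG (SD, n = 3 each). In edgeR, the estimate for SOC1a was a log2 fold change of −0.21 ± 0.15 (SE, adjusted p = 0.303), and the 95% interval ran from −0.57 to 0.16, or from 0.675-fold to 1.12-fold. An exact permutation test of the CPM values gave a two-sided p of 0.2, where 3 libraries against 3 cannot go below 0.1.

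SOC1b, the second copy, had 241, 206 and 167 counts in the 80 DAG libraries and 235, 256 and 182 counts in the 20 DAG libraries. In CPM these were 13.1, 17.0 and 11.6 at 80 DAG, against 25.0, 19.9 and 18.2 at 20 DAG. The ages did not overlap for SOC1b, which was also the case for 60.8% of all genes tested. The nearest libraries were replicate 2 of 80 DAG and replicate 3 of 20 DAG. The mean was 13.9 ± 2.77 CPM at 80 DAG and 21.0 ± 3.56 CPM at 20 DAG (SD, n = 3 each). The 0.659-fold level of SOC1b at 80 DAG had a 95% interval from 0.472-fold to 0.920-fold. On the log2 scale edgeR gave −0.60 ± 0.20 (SE, adjusted p = 0.0442), and an exact permutation test gave the smallest p it allows, 0.1 (two-sided). In bulk leaf samples, fewer cells that express a gene and less RNA per cell cannot be told apart.

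**Figure D1:**
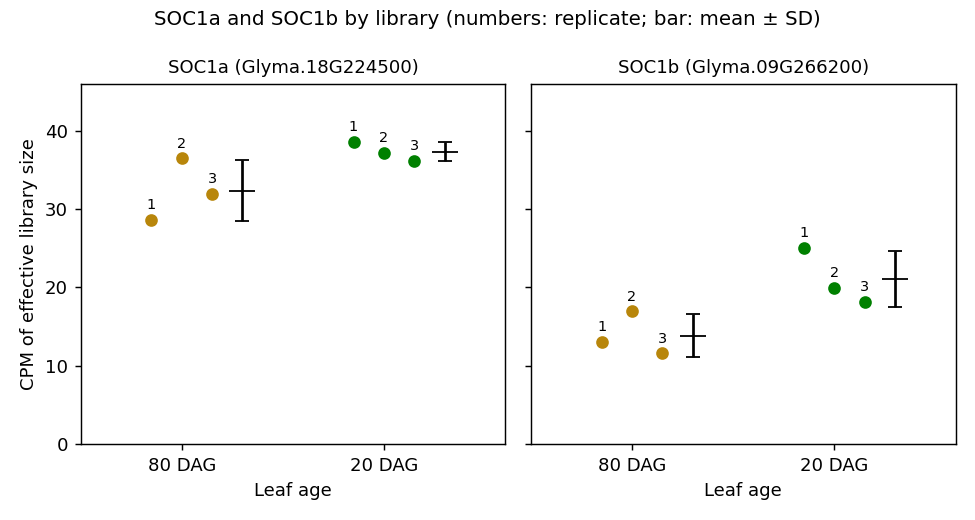
SOC1a and SOC1b in CPM of the effective library size, with 80 DAG left of 20 DAG. Each point is a library with its replicate number, and the black bar is the mean ± SD of 3 libraries. The SOC1b points lie at 11.6 to 17.0 CPM at 80 DAG and at 18.2 to 25.0 CPM at 20 DAG, whereas the SOC1a points of the ages overlap.

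The call of SOC1b was close to the threshold, and it was lost on leaving out any 1 library other than replicate 2 of 80 DAG. With edgeR its adjusted p was 0.140 without replicate 1, 0.0248 without replicate 2 and 0.154 without replicate 3 of 80 DAG. It was 0.104 without replicate 1, 0.0638 without replicate 2 and 0.0605 without replicate 3 of 20 DAG. Over the 13 alternatives tried, DESeq2 and limma-voom included, the adjusted p ran from 0.0248 to 0.170 for SOC1b and from 0.202 to 0.965 for SOC1a. With scaling by library size alone, the log2 fold change of SOC1b was −0.38 (edgeR, adjusted p = 0.170) and that of SOC1a was 0.013, while the median over all genes tested was 0.21 in place of −0.02. In CPM of the library total, SOC1b did not overlap between the ages, with 13.5 to 15.8 CPM at 80 DAG and 16.9 to 21.5 CPM at 20 DAG. The share of all genes without overlap was not computed under this scaling, and was 60.8% in CPM of the effective library size.

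**Figure D2:**
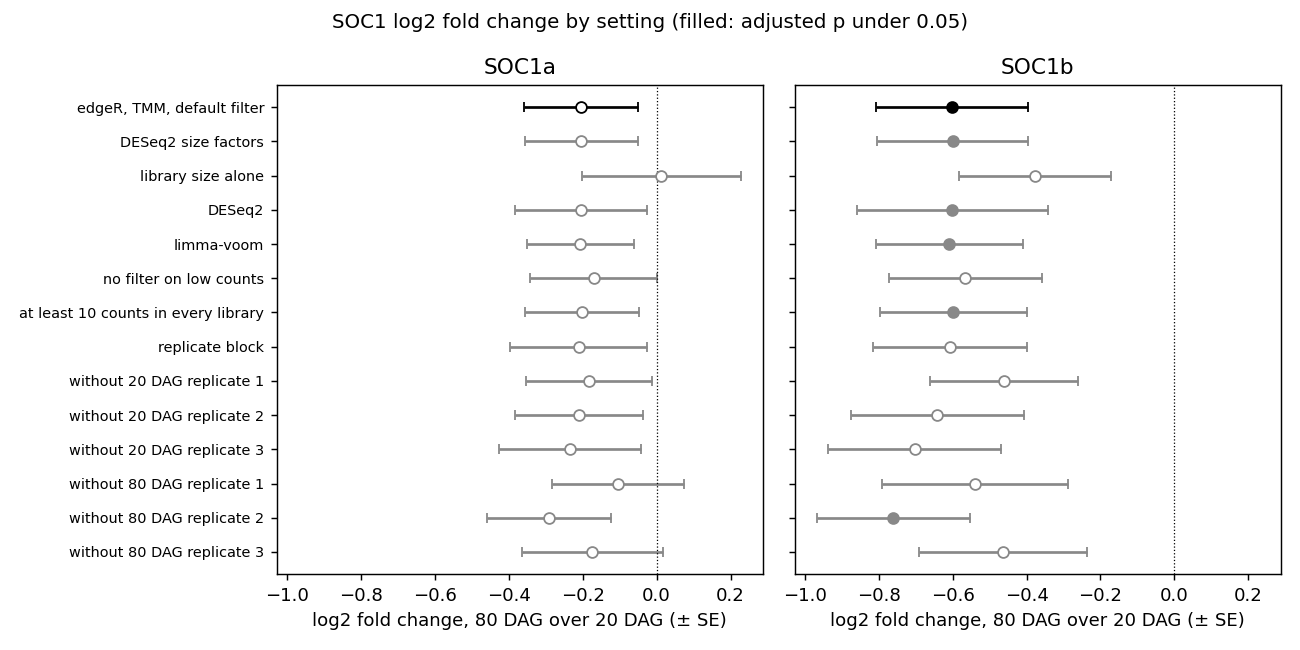
Log2 fold change of SOC1a (left) and SOC1b (right), 80 DAG over 20 DAG, under the setting used in the text (top, black) and 13 alternatives (grey), with standard errors. Filled points had an adjusted p under 0.05. SOC1b lies between −0.76 and −0.38 throughout and is filled under 5 of the 13 alternatives, whereas no SOC1a point is filled.

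The balance of the pair within a library does not depend on how libraries are scaled. SOC1a took 68.7%, 68.3% and 73.4% of the SOC1a and SOC1b counts in replicates 1 to 3 of 80 DAG, and 60.6%, 65.1% and 66.5% in those of 20 DAG. Every 80 DAG library thus had a higher SOC1a share than every 20 DAG library. How often other pairs of genes separate in this way was not computed. Of single genes tested, 60.8% did not overlap between the ages in CPM. The counting intervals (95%, Wilson) of neighbouring libraries overlapped, since replicate 2 of 80 DAG ran from 64.6% to 71.7% and replicate 3 of 20 DAG from 62.5% to 70.4%. The mean share was 70.1 ± 2.86% at 80 DAG and 64.1 ± 3.08% at 20 DAG (SD, n = 3 each), a difference of 6.01 points. An exact permutation test gave p = 0.1 (two-sided), which is the smallest that this test can give for 3 libraries against 3. No other kind of test of the share was run. The same permutation test gave p = 0.1 with a pseudocount of 1 count, and p = 0.1 to 0.2 with 1 library left out. Lengths of the gene models were not used, so the share does not say which copy has more RNA molecules, and it is compared only between libraries. The copies are paralogs, and reads that fit both may have been counted for either one or dropped.

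**Figure D3:**
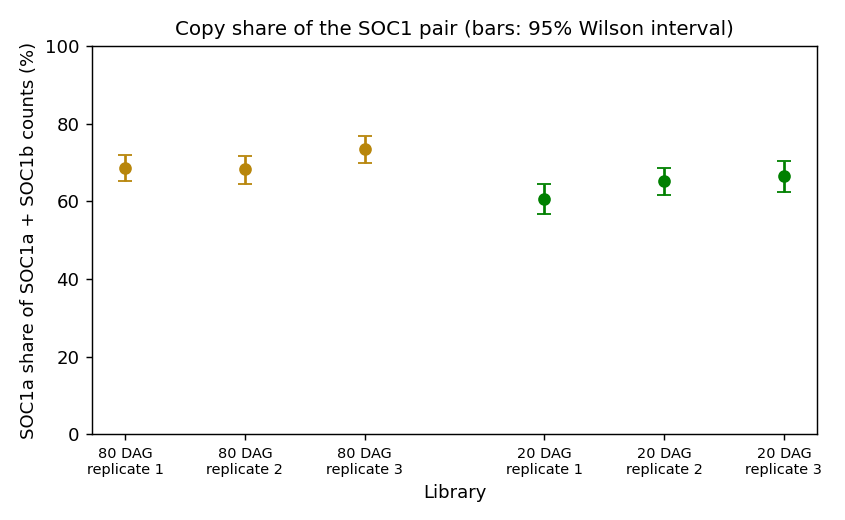
SOC1a share of the summed SOC1a and SOC1b counts in each library, in percent on an axis from 0 to 100, with 80 DAG left of 20 DAG. Bars are 95% Wilson intervals, which cover counting error only. The 80 DAG libraries lie at 68.3% to 73.4% and the 20 DAG libraries at 60.6% to 66.5%.

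Both copies changed by less than most of the genes tested. An absolute log2 fold change below that of SOC1b was found in 44.5% of all genes tested, and one below that of SOC1a in 17.9%. The 2 copies were not each other's nearest profile. Over the 6 libraries, centred log2(CPM + 1) profiles of SOC1a and SOC1b were 0.24 apart (root mean square), and 20.8% of the other genes tested were nearer to SOC1a than SOC1b was. The nearest genes to SOC1a were Glyma.11G102200, at a distance of 0.03, and Glyma.02G273000, at 0.04. Those nearest to SOC1b were Glyma.14G034200 and Glyma.16G207200, both at 0.06. None of these 4 genes was called between the ages (adjusted p 0.0609 to 0.257, edgeR), and the tables used here pair none of them with a name. With scaling by library size alone, 1 of the 2 neighbours of SOC1a and 0 of the 2 of SOC1b came out again, so this order depends on the scaling.

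**Figure D4:**
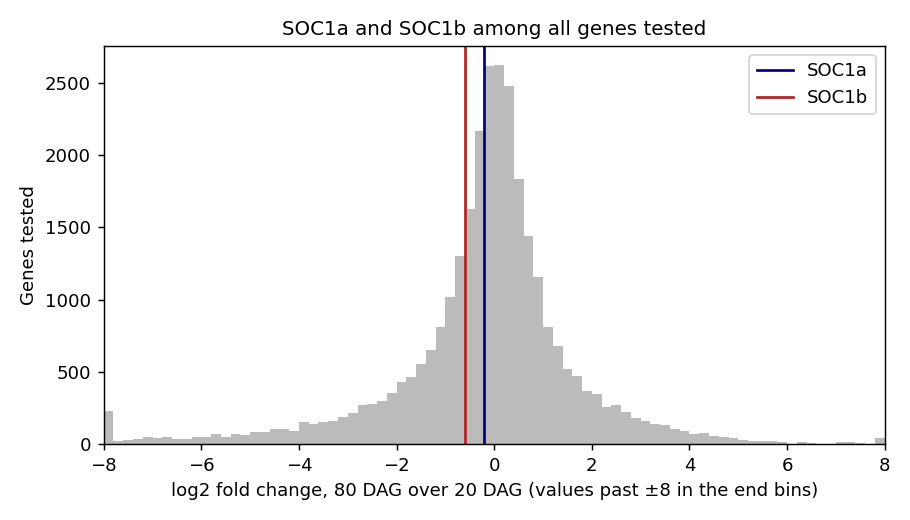
Number of genes tested by log2 fold change, 80 DAG over 20 DAG, in bins of 0.2, with SOC1a and SOC1b as vertical lines. SOC1a (−0.21) and SOC1b (−0.60) lie in the central part of the distribution of 30058 genes.

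The AP1 genes, which mark floral meristems, had almost no counts in leaves of both ages. Summed over the 4 genes, 4 counts were found in the 80 DAG libraries and 1 in the 20 DAG libraries. AP1a had 0, 1 and 1 counts in replicates 1 to 3 of 80 DAG and 1, 0 and 0 counts in those of 20 DAG. AP1c had 1, 1 and 0 counts in the 80 DAG libraries and was at 0 in the 20 DAG libraries. These counts are at or under a floor of 3 counts a library, and no fold change is given. AP1b and AP1d had no count in any library of either age.

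Dt1, the gene that keeps the stem tip growing, had no count in any of the 6 libraries. A count of 0 allows up to 3 counts, which is 0.163 to 0.247 CPM in a library of 80 DAG and 0.233 to 0.319 CPM in a library of 20 DAG. Over all 6 libraries together, the same limit is 0.0388 CPM for each of AP1b, AP1d and Dt1. These limits cover counting error only. Of all gene models in the table, 22.0% had no count in any library, against 3 of the 8 members.

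Dt2, the repressor of Dt1, was the only member below the filter with more than 1 count in a library. It had 0, 0 and 1 counts in replicates 1 to 3 of 80 DAG and 7, 1 and 2 counts in those of 20 DAG. Replicate 1 of 20 DAG held 70.0% of the 20 DAG counts, and replicate 2 of 20 DAG, with 1 count, was level with replicate 3 of 80 DAG in raw counts. The ratio of summed counts over effective library size was 0.0717 (80 DAG over 20 DAG), with a 95% interval from 0.00165 to 0.504 that covers counting error only. In a fit without the expression filter, in which 38.5% of 43718 genes were called, Dt2 had an adjusted p of 0.0715 (edgeR) and was not past the threshold. Without replicate 1 of 20 DAG the adjusted p was 0.326. Without replicate 2 of 20 DAG it was 0.0436, which is past the threshold, and 0.0436 to 0.326 was the range over 11 alternatives. With all 6 libraries, limma-voom gave 0.0474, past the threshold, and DESeq2 gave 0.0851, so the call of Dt2 differed between tools.

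**Figure D5:**
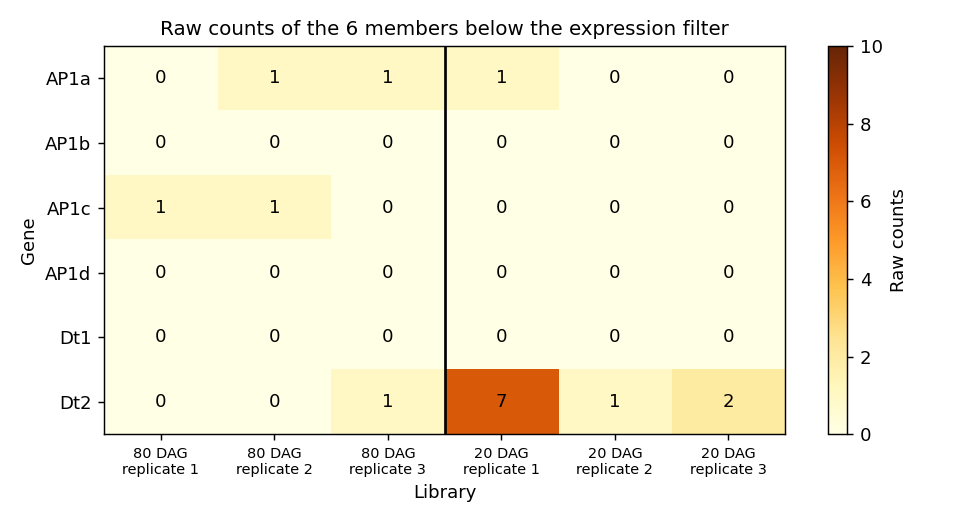
Raw counts of the 6 members below the expression filter, with genes in rows and libraries in columns, 80 DAG left of 20 DAG; the colour scale runs from 0 to 10 counts. The highest value is 7, for Dt2 in replicate 1 of 20 DAG, and AP1b, AP1d and Dt1 are at 0 in all 6 libraries.

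The libraries of one age differed from each other by more than sampling noise (chi-square per degree of freedom 7.22 to 45.3), so none was a copy of another. The labelled tissue was not checked against leaf marker genes, and other MADS-box and phosphatidylethanolamine-binding genes were not counted, because the tables used here do not pair their identifiers with names. Levels of different members were not ranked, since that needs their lengths.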

How the data were processed

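Total RNA of leaf disks was depleted of ribosomal RNA, and stranded libraries were sequenced as paired-end reads. The authors deposited raw counts per gene model of Wm82.a2.v1, without normalization. The submitters' processing notes name CASAVA 1.7, Bowtie2 and DESeq2 without their roles. The counting program and its strand setting are not given in the sources used here, so the assignment of reads that fit paralogs, overlapping genes or antisense genes is uncertain. All 6 columns matched a sample title, and 0 columns were left unmapped.

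The counts were tested with edgeR 4.0.16 in R 4.3.3 (quasi-likelihood F test, TMM, default filterByExpr, Benjamini-Hochberg adjustment), after a check of the test on simulated data. In the simulated data only a small part of the genes changed. That check thus does not cover a comparison in which 49.1% of genes were called. Standard errors are the absolute log2 fold change over the square root of F, and 95% intervals use the test's degrees of freedom. DESeq2 1.42.0 and limma 3.58.1 (voom) were alternatives, with other scalings, filters and thresholds, the replicate number as a block, and each library left out in turn. DESeq2 was the package of the study, which also applied independent hypothesis weighting to its output. That weighting was not repeated here. Shares and exact tests were computed with Python 3.11.15 and scipy 1.17.1.

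All 8 members are named, with the 2 nearest profiles of each member tested. The members, gene lists and tests were chosen with earlier results of these data known. The count table holds no gene names. The RefSeq table (Glycine_max_v4.0) holds 0 of the identifiers, and by symbol and chromosome 2 of the 8 members, Dt1 and Dt2, have an entry. Its AP1A, on chromosome 6 with the synonym FULa, is not the AP1a used here, on chromosome 16. Sequences and coordinates were not used here.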

Additional observations from a re-analysis of the deposited data

How the results depend on the processing

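SOC1b kept a negative log2 fold change under all 13 alternatives (−0.76 to −0.38) and was past an adjusted p of 0.05 under 5 of them. It was lost with scaling by library size alone (−0.38, unadjusted p = 0.103), without the filter on low counts (−0.57, unadjusted p = 0.0239) and with the replicate number as a block (−0.61, adjusted p = 0.0754 and unadjusted p = 0.0341, all from edgeR), and its values with 1 library left out ran from −0.76 to −0.46. Hence 0 members were called, in place of 1, with library size alone, without the filter, with the block, at the stricter adjusted p of 0.01 and with a minimum log2 fold change of 1, and 0 to 1 with 1 library left out. The cause was not tested for the scaling and the filter. SOC1a was past the threshold under 0 of 13 alternatives and turned to 0.013 with library size alone, in which the median of all genes moved as well. For Dt2, limma-voom gave −2.50 with an adjusted p of 0.0474, and leaving out 1 library gave −5.05 to −2.14. The SOC1a share was 4.28 to 7.23 points higher at 80 DAG with 1 library left out.

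Deviations from the age means did not run together in libraries that share a replicate number (mean correlation −0.17 across genes). Same-numbered libraries had correlations of −0.24, −0.32 and 0.07, and the others ran from −0.27 to 0.35. These values show no sign of pairing by number, but with 3 libraries per age they cannot exclude it. With the block, SOC1a (−0.21) and, in the fit without the filter, Dt2 (−3.43, near the floor) stayed above the threshold. Alternatives planned for MADS-box genes and levels per length were not run, as names and lengths were not matched. A count of 0 in every library (AP1b, AP1d, Dt1) sets only an upper limit of 0.0388 CPM.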

Other observations

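The rows next to the members in the count table, 5 on each side, were looked up after the members' counts were seen. Of the 10 rows around Dt1, 9 had counts and 7 passed the expression filter. Around AP1a the numbers were also 9 and 7, around Dt2 they were 8 and 6, and around AP1d 8 rows had counts and 4 passed. Around AP1b 4 rows had counts and 3 passed, and around AP1c 4 rows had counts and 4 passed. Around SOC1a 8 rows had counts and 3 passed, and around SOC1b 6 rows had counts and 2 passed. Of all gene models in the table, 22.0% had no count in any library and 46.4% were removed by the filter. The highest of the rows around Dt1 held 1865 counts summed over the 6 libraries.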
